A study of Mus musculus with 7 samples.

Results

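The cytotoxic granule genes described here are Prf1, Gzma, Gzmb, Ctsw, Nkg7 and Crtam. They were taken as all probes that carry one of these gene names in the scanner files, which gave 6 of the 27962 names on the array and 7 of its 41174 probes. Nkg7 has 2 probes and the other genes have 1 each, and all 7 probes passed the filter on dim probes. The genes were read in thymocytes of BALB/c mice. The transgene, KN6, codes for a receptor of the γδ type. The populations, all sorted by flow cytometry, were DN4 cells of KN6 Tg Rag2-/- mice called Lig+ (4 arrays), DN4 cells of KN6 Tg Rag2-/- mice called Lig- (3 arrays), and, as control, DN3 cells sorted from non-transgenic Rag2-/- mice. All 3 populations lack Rag2. DN3 and DN4 are successive stages of thymocytes that carry neither CD4 nor CD8, and Lig stands for the ligand of the KN6 receptor. The ages of the mice, the promoter of the transgene and the way in which Lig- cells came to lack the ligand are not given in the sources used here.

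Each array was hybridised with DN4 RNA in one dye and DN3 RNA in the other, so every value below is a log2 ratio of DN4 over DN3 unless a level is named. A value of 1 is a doubling. DN3 RNA was on all 7 arrays and served as 1 control sample, so the ratio was tested against 0 and leaves out the spread of DN3 cells. The arrays lay on 4 slides scanned on 2 days, with slides 1 and 2 on day 1. Slides 1, 2 and 3 each held the Lig+ and the Lig- array of that replicate number, and slide 4 held Lig+ replicate 4. DN4 RNA was labelled with Alexa 647 on slide 1 and with Alexa 555 elsewhere. Arrays are named as biological replicates in the series text, and whether a dye swap reused RNA is not stated. If it did, n is smaller and the p-values are too low. Median signals were 233 to 595 in the DN4 channel and 443 to 571 in the DN3 channel, no spot was saturated, and the number of arrays limits the precision. The source names of day 2 omit DN4. The 7 DN3 stage markers were lower in both kinds of DN4 cell, apart from Dtx1 in Lig+ cells (-0.07 ± 0.15, adjusted p = 0.765). The ratio of Il2ra, which encodes the CD25 protein that separates DN3 from DN4 cells, was -5.29 ± 0.20 in Lig+ and -5.45 ± 0.22 in Lig- cells. All 8 T lineage markers were well above background on every array, as were 72.9% to 85.0% of all probes in the single DN4 channels. Against DN3, 2 of the 8 were higher and 4 lower in Lig+ cells, from Cd3g at -1.99 ± 0.14 to Ptprc at 1.94 ± 0.10. In Lig- cells 3 were higher and 2 lower. Of all probes, 36.6% were called in Lig+ and 31.7% in Lig- cells.

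Cytotoxic lymphocytes kill by releasing granules onto a target cell. Perforin opens the target's membrane, and granzymes, which are serine proteases, enter and cleave proteins that start cell death. The granules are a kind of lysosome, so cathepsins and lysosomal membrane proteins are among their contents. Natural killer cells, CD8 T cells and some γδ T cells are the lymphocytes best known for these genes.

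Of the 6 genes, 4 had RefSeq promoter entries (build GRCm38.p6), and these are shown because Prf1 and Nkg7 rose in the same populations while Gzma had the opposite order between Lig+ and Lig- cells. The sequences run 5′ to 3′ on the strand of the gene and end at its start. Capitals mark matches to any of 9 motifs searched on both strands. For Prf1 the matches were searched over 250 bases before the start in the promoter table, and only the 165 bases that lie before the gene's annotated span are printed. The Gzma window is chr13:113100982-113101231 on the minus strand, the Gzmb window chr14:56262335-56262584 on the minus strand, the Prf1 stretch chr10:61297586-61297750 on the plus strand and the Nkg7 window chr7:43436888-43437137 on the plus strand.
Prf1: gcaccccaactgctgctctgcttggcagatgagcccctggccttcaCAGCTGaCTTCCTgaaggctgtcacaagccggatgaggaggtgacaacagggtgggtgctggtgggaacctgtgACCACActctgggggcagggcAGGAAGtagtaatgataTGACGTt
Gzma: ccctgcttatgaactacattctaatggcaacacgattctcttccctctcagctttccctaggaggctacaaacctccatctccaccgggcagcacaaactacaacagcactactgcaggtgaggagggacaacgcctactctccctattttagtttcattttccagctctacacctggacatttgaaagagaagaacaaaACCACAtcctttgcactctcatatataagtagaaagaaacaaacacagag
Gzmb: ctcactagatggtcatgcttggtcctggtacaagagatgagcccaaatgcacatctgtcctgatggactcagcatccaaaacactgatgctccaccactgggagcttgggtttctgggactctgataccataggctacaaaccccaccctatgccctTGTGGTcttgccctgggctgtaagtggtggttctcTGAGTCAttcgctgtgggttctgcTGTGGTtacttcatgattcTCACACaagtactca
Nkg7: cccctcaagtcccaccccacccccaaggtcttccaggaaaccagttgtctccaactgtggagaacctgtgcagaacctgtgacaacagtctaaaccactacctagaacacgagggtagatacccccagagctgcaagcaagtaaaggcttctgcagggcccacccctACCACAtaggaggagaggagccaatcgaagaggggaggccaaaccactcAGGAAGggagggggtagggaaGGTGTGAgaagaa
The Runx motif TGTGGT was found in all 4 windows, once each in Prf1, Gzma and Nkg7 and at 2 places in Gzmb, against 14% of the 32851 windows of this length in the table. It lay on the strand of the gene in Gzmb and on the opposite strand, printed as its reverse complement, in the other 3. The Ets motif AGGAAG was in Prf1 and Nkg7, against 29.5% of all windows. Nkg7 holds the T-box motif GGTGTGA (3.33% of all windows), which overlaps a match to the shorter form TCACAC on the opposite strand, and Gzmb holds the shorter form alone (12.3%). Gzmb also holds the AP-1 motif TGANTCA (6.75%), and Prf1 the CRE motif TGACGT (6.47%) and the E-box CAGCTG (13.0%). No window holds the Egr motif GTGGGCG (7.02%) or the TATA motif TATAAA (12.4%). These are matches of letters and show no binding.

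Of the 6 genes, 5 rose in Lig+ cells and 4 rose in Lig- cells relative to DN3. Prf1, Gzma, Ctsw and Nkg7 rose in both, Crtam rose in Lig+ cells, and Gzmb passed no test. Here and below, rose means higher than in DN3 cells and fell means lower. The DN3 cells also lacked the transgene, so stage and transgene cannot be told apart in these ratios. Between the groups, Prf1, Ctsw, Nkg7 and Crtam were higher in Lig+ cells and Gzma was higher in Lig- cells. Tests were limma's, on 1 fit over all arrays with a dye term, and p-values were adjusted by Benjamini-Hochberg over all 34906 probes kept, with a threshold of 0.05. Values with ± are fitted log2 ratios and their SE (n = 4 Lig+ and n = 3 Lig- arrays). Many probes pass this test. In Lig+ against DN3, 36.6% of probes were called, 17.7% as higher and 18.9% as lower, and in Lig- against DN3 31.7% were called, 16.3% as higher and 15.5% as lower. In Lig+ against Lig-, 10.9% were called, 4.57% as higher and 6.35% as lower. With slide as a block 7162 probes were called between the groups in place of 3812. Lig+ and Lig- arrays did not overlap for 5 of the 6 genes, against 22.9% of all probes. The median over the 6 genes was 2.39 in Lig+ and 1.08 in Lig- cells, and 1.27 between them, against a median of 0.00 over all probes in each. Both comparisons with DN3 share the same control. Leaving out Lig+ replicate 1 took the calls between the groups from 5 genes to 1, as did leaving out Lig- replicate 1. Both omissions are the same comparison of the groups, since the dye term then fits the remaining array of slide 1 exactly. The count was 2 genes without Lig- replicate 2 or Lig- replicate 3 and 3 without Lig+ replicate 4.

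**Figure D1:**
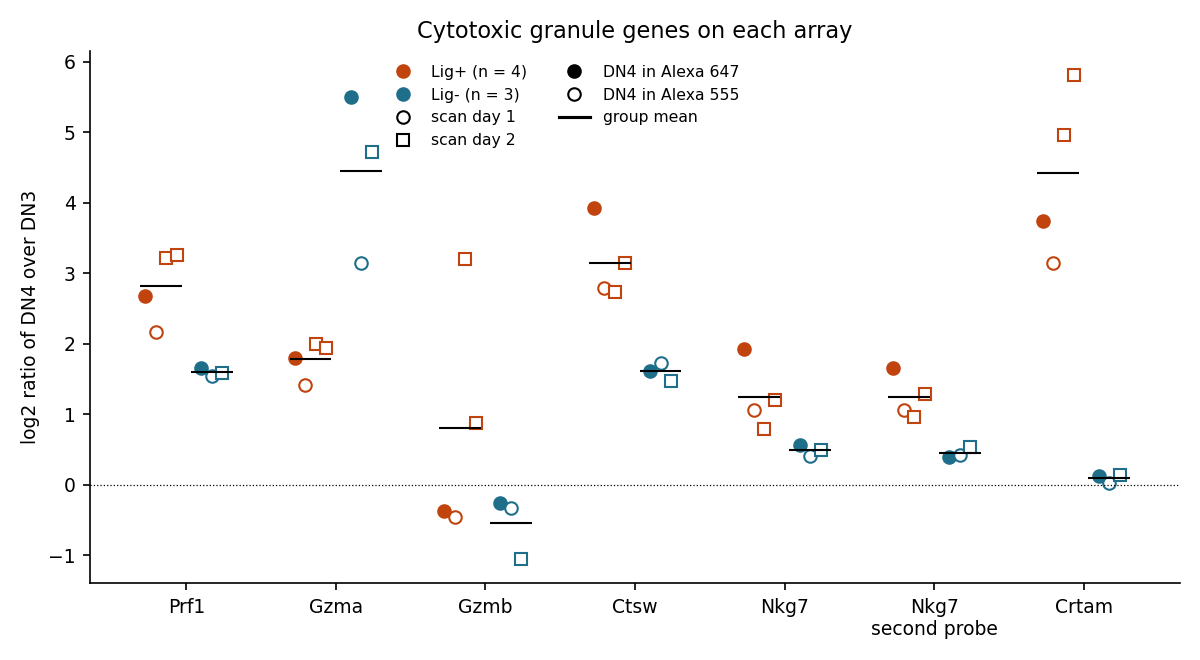
Log2 ratio of DN4 over DN3 on each array for the 7 probes, with Lig+ arrays in red (n = 4) and Lig- arrays in blue (n = 3). Circles are scan day 1 and squares scan day 2, filled marks are arrays with DN4 RNA in Alexa 647, and bars are group means. The Lig+ and Lig- points lie apart for Prf1, Gzma, Ctsw, both Nkg7 probes and Crtam, with Gzma alone lower in Lig+ cells, and they overlap for Gzmb.

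Prf1 encodes perforin, the pore-forming protein of the granule (GRCm38.p6, chr10:61297751-61304684). Its ratios were 2.68, 2.16, 3.21 and 3.26 on Lig+ replicates 1 to 4 and 1.66, 1.54 and 1.58 on Lig- replicates 1 to 3. All 7 arrays were above 0 and the lowest Lig+ array was above the highest Lig- array. In the fit Prf1 rose by 2.81 ± 0.20 in Lig+ cells (7.02-fold, adjusted p = 1.15e-04) and by 1.58 ± 0.22 in Lig- cells (3.00-fold, adjusted p = 0.00237). Lig+ exceeded Lig- by 1.23 ± 0.28 (2.34-fold, adjusted p = 0.0425). The rise in Lig- cells missed the threshold without Lig- replicate 1 (1.46, adjusted p = 0.0643). The difference between Lig+ and Lig- cells kept its size, at 1.09 to 1.45 without single arrays, but passed the threshold only when Lig+ replicate 2 was the one left out.

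Gzma encodes granzyme A, a tryptase of the granule (chr13:113093824-113100981). Its ratios were 1.80, 1.42, 1.99 and 1.95 on the Lig+ arrays and 5.49, 3.15 and 4.72 on the Lig- arrays. All 7 arrays were above 0, and here the highest Lig+ array was below the lowest Lig- array. Gzma rose by 1.97 ± 0.33 in Lig+ cells (3.93-fold, adjusted p = 0.00417) and by 4.58 ± 0.36 in Lig- cells (23.9-fold, adjusted p = 2.49e-04). The ratio of Lig+ over Lig- was -2.60 ± 0.47 (95% interval -3.73 to -1.48, adjusted p = 0.0196), so the ratio to DN3 was 6.08-fold higher in Lig- cells. That difference missed the threshold without Lig+ replicate 1 or Lig- replicate 1 (-2.15, adjusted p = 0.0959), which leave the same arrays to compare. Without Lig- replicate 3 the difference missed it too (-2.30, adjusted p = 0.0741). The Lig- ratios spread more widely than the Lig+ ratios. The DN3 channel of the Lig- arrays ran from 12.24 on the array of Lig- replicate 1 to 15.44 on that of Lig- replicate 2 (log2 intensity), a wider range than that of the Lig- channel, which ran from 17.73 to 18.76. On the Lig+ arrays the DN3 channel ran from 14.37 to 15.41. Mean DN4 levels were 18.4 in Lig- and 16.6 in Lig+ cells, so the ratio difference also holds a difference between DN3 channels.

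Gzmb encodes granzyme B, the protease that cleaves after aspartate and activates caspases (chr14:56258836-56262334). Its ratios were -0.37, -0.45, 3.20 and 0.87 on the Lig+ arrays and -0.25, -0.33 and -1.05 on the Lig- arrays. The values of the groups overlapped, and Lig+ replicate 3 stood above all others. Neither ratio to DN3 passed the test, with 0.65 ± 0.63 in Lig+ cells (95% interval -0.87 to 2.18, adjusted p = 0.480) and -0.65 ± 0.69 in Lig- cells (95% interval -2.32 to 1.02, adjusted p = 0.542). The difference of 1.30 ± 0.89 did not pass either (95% interval -0.85 to 3.46, adjusted p = 0.432). The intervals are wide and leave room for changes of several fold. The arrays split by scan day in Lig+ cells. On day 1 alone, with 2 Lig+ and 2 Lig- arrays, the Lig+ ratio was -0.41 and the Lig- ratio -0.29. On day 2 alone, with 2 Lig+ arrays, the Lig+ ratio was 2.04. Fits of a single day hold too few arrays for their p-values to carry weight. On day 1 alone 22430 of 34906 probes were called in Lig+ cells. A term for scan day over both groups was 1.21 for Gzmb (day 2 minus day 1, adjusted p = 0.457). Cd8a, which encodes a chain of CD8, had ratios of -0.35, -0.30, 3.85 and 2.18 on Lig+ replicates 1 to 4. The Lig+ arrays of day 2 were thus high for both genes, and Lig+ replicate 3 was the highest for both. Cd8a was also above 0 on the 3 Lig- arrays, at 2.19, 1.82 and 3.55, where Gzmb was below 0. In the limma fit Cd8a passed neither in Lig+ (adjusted p = 0.350) nor in Lig- cells (adjusted p = 0.0746). Cd4 did not pass either (adjusted p = 0.149 and 0.721). The part of Cd8a in the Gzmb values was not tested.

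Ctsw encodes cathepsin W, a cysteine protease found mainly in cytotoxic lymphocytes (chr19:5465043-5468628). Its ratios were 3.93, 2.78, 2.73 and 3.15 on the Lig+ arrays and 1.62, 1.73 and 1.48 on the Lig- arrays. The lowest Lig+ array lay above the highest Lig- array, and all 7 arrays were above 0. Ctsw rose by 3.29 ± 0.16 in Lig+ cells (9.77-fold, adjusted p = 2.98e-05) and by 1.70 ± 0.18 in Lig- cells (3.25-fold, adjusted p = 7.59e-04). Lig+ exceeded Lig- by 1.59 ± 0.23 (3.00-fold, adjusted p = 0.00964), and this call held under all 22 other settings, with adjusted p from 0.00374 to 0.0400.

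Nkg7 encodes a membrane protein of the granule that takes part in its release (chr7:43437138-43438246). On its brighter probe the ratios were 1.93, 1.07, 0.79 and 1.20 on the Lig+ arrays and 0.56, 0.41 and 0.49 on the Lig- arrays. On the other probe they were 1.65, 1.06, 0.97 and 1.29, and 0.39, 0.42 and 0.54. Both probes placed every Lig+ array above every Lig- array. The brighter probe rose by 1.38 ± 0.13 in Lig+ cells (2.60-fold, adjusted p = 3.84e-04) and by 0.58 ± 0.14 in Lig- cells (1.49-fold, adjusted p = 0.0248). Lig+ exceeded Lig- by 0.80 ± 0.19 on this probe (1.74-fold, adjusted p = 0.0442) and by 0.82 ± 0.16 on the other (1.76-fold, adjusted p = 0.0247). The difference on the brighter probe lay close to the threshold. With the slide that Lig+ and Lig- arrays shared as a block it was 0.77 ± 0.22 (adjusted p = 0.0800). Without single arrays it was 0.57 to 0.91, and it passed only when Lig+ replicate 3 was left out. In Lig- cells the rise missed the threshold without Lig- replicate 2 (0.53, adjusted p = 0.105) or Lig- replicate 3 (0.49, adjusted p = 0.104), and without Lig- replicate 1 it was 0.91.

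Crtam encodes a surface protein of the immunoglobulin superfamily that binds Cadm1 and marks activated cytotoxic T cells (chr9:40972798-41004628). Its ratios were 3.74, 3.15, 4.96 and 5.81 on the Lig+ arrays and 0.13, 0.02 and 0.14 on the Lig- arrays. The Lig+ arrays were far above the Lig- arrays, which lay at the DN3 level. Crtam rose by 4.30 ± 0.43 in Lig+ cells (19.7-fold, adjusted p = 4.90e-04). In Lig- cells the ratio was 0.02 ± 0.48 (95% interval -1.13 to 1.17, adjusted p = 0.981), so this fit could not detect changes of up to about that size in either direction. The fit shares 1 spread between the groups, and the SD of the ratios was 1.20 in Lig+ and 0.06 in Lig- cells. Lig+ exceeded Lig- by 4.28 ± 0.61 (19.4-fold, adjusted p = 0.00952), and the difference stayed at 3.85 to 4.74 without single arrays. It fell just short of the threshold without Lig+ replicate 1 or Lig- replicate 1 (4.56, adjusted p = 0.0517), which leave the same arrays to compare. Without Lig- replicate 2 it did so too (4.15, adjusted p = 0.0520). The Lig+ ratios of day 2 were higher than those of day 1, and the term for scan day was 1.36 (adjusted p = 0.141). Of the Crtam partners, Cadm1, its ligand, was lower than in DN3 cells (-0.97 ± 0.19 in Lig+, adjusted p = 0.00762, and -1.16 ± 0.21 in Lig-, adjusted p = 0.00678). Scrib, a polarity protein that Crtam recruits, was higher (0.79 ± 0.07, adjusted p = 2.66e-04, and 1.00 ± 0.08, adjusted p = 2.18e-04). Neither partner differed past the threshold between Lig+ and Lig- cells, or at an unadjusted p under 0.05 (0 of 2 by limma).

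**Figure D2:**
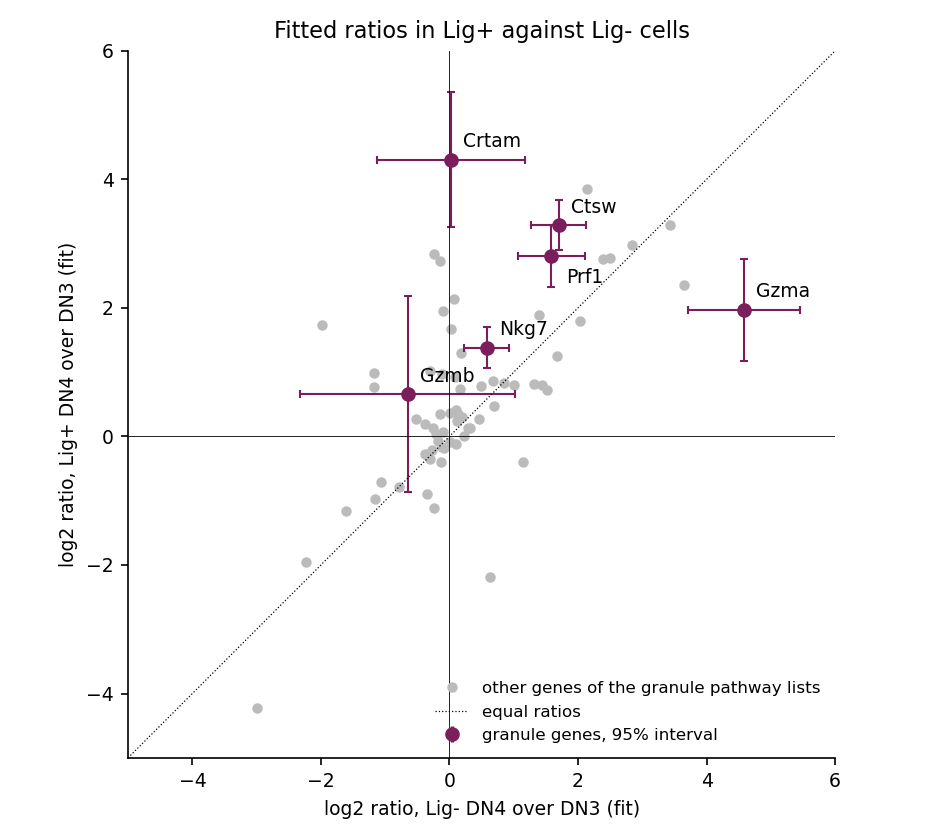
Fitted log2 ratio to DN3 in Lig+ cells (vertical axis) against that in Lig- cells (horizontal axis), with 95% intervals, for the 6 granule genes. Grey points are the other genes of the pathway lists, and the dotted line marks equal ratios. Prf1, Ctsw, Nkg7 and Crtam lie above the line, Gzma lies below it, and the intervals of Gzmb cross 0 on both axes.

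The level of each probe gave the order of the 3 populations. Levels are log2 normalised channel intensities, given as mean ± SD over 4 Lig+, 3 Lig- and 7 DN3 channels, and are not comparable between probes. They are open to dye bias, since dyes were not balanced. For Prf1 the order was DN3 at 9.06 ± 0.29, Lig- at 10.5 ± 0.11 and Lig+ at 12.0 ± 0.40. Ctsw had the same order, with 13.8 ± 0.58, 15.3 ± 0.27 and 17.1 ± 0.27, and so did Nkg7, with 15.6 ± 0.40, 16.1 ± 0.24 and 16.8 ± 0.17. For these genes no 2 neighbours in the order overlapped. The share of all probes whose levels lie apart in this way was not computed, so the lack of overlap only describes the probes named. Gzma ran from DN3 at 14.4 ± 1.09 to Lig+ at 16.6 ± 0.25 and Lig- at 18.4 ± 0.55, again without overlap. For Crtam, Lig- at 8.26 ± 0.53 and DN3 at 8.52 ± 0.53 overlapped, and Lig+ stood apart at 13.2 ± 1.12. For Gzmb, Lig- at 9.59 ± 1.40, DN3 at 10.2 ± 0.78 and Lig+ at 11.0 ± 1.51 all overlapped. Each probe was well above background in both channels of all 7 arrays. So were 75.8% to 83.8% of all probes in the single DN3 channels and 72.9% to 85.0% in the DN4 channels. The flag therefore does not set these genes apart.

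**Figure D3:**
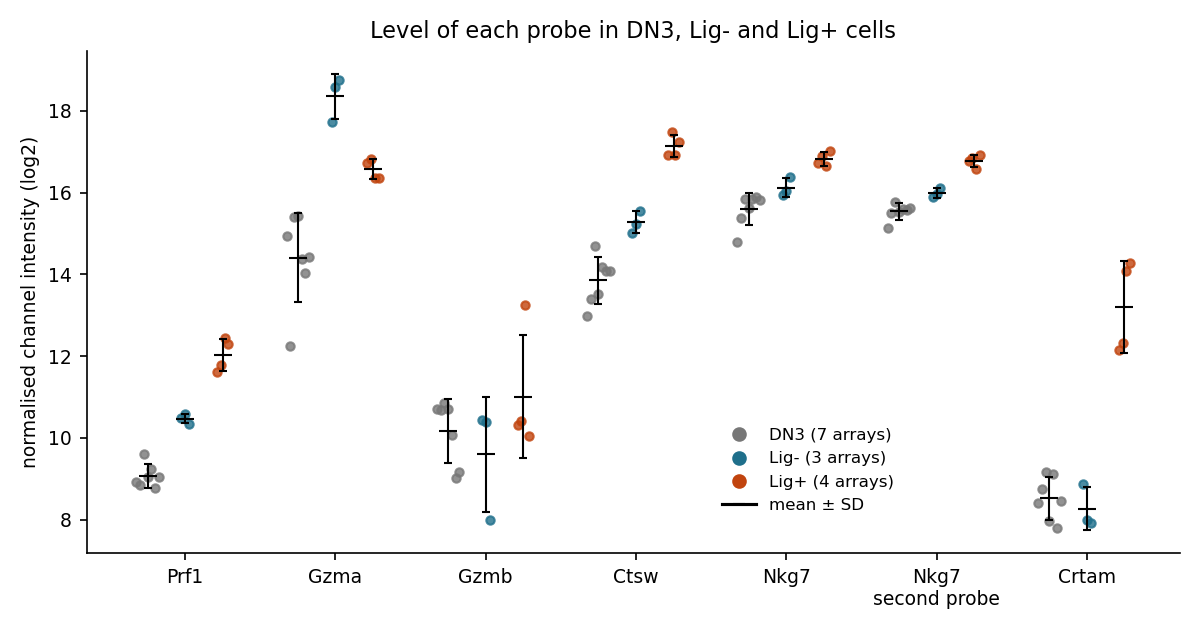
Log2 normalised channel intensity of each probe in DN3 (7 channels, grey), Lig- (3, blue) and Lig+ cells (4, red), with mean ± SD. DN3 channels are lowest for Prf1, Gzma, Ctsw and Nkg7, Lig- is highest for Gzma, and Lig+ is highest for Prf1, Ctsw, Nkg7 and Crtam.

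Other genes of the granule pathway, from lists, did not all follow these 6. Counts in the lists here and below stand against the shares of all probes called. These were 36.6% in Lig+ and 31.7% in Lig- cells against DN3, and 10.9% between the groups. Of 8 other granzymes 5 passed the filter on dim probes, and only Gzmm, granzyme M, passed the test, with lower values in Lig+ (-0.28 ± 0.08, adjusted p = 0.0356) and in Lig- cells (-0.38 ± 0.09, adjusted p = 0.0181). These calls were lost under 11 of 22 other settings in Lig+ cells (adjusted p up to 0.220), among them each single array left out except Lig+ replicate 3, and under 7 of 22 in Lig- cells, among them each Lig- array left out (adjusted p up to 0.233). None of the 5 differed between the groups in the limma test, with 0 at an unadjusted p under 0.05 too. Their median ratios were 0.07 in Lig+ and -0.14 in Lig- cells, against a median of 0.00 over all probes. Of 13 genes for granule contents and lysosomal processing, 6 rose and 3 fell in Lig+ cells (median 0.47), and 5 rose and 4 fell in Lig- cells (median 0.08). Cst7, the cathepsin inhibitor cystatin F, rose in both, with 2.98 ± 0.14 in Lig+ and 2.84 ± 0.15 in Lig- cells (adjusted p = 2.68e-05 and 6.44e-05). Ctsh, a cathepsin, was lower in both in the fit (-1.16 ± 0.28 and -1.61 ± 0.31, adjusted p = 0.0191 and 0.00919), but was at 0.10 on Lig+ replicate 3. Its call was lost under 5 of 22 other settings in Lig+ cells (adjusted p up to 0.254). In Lig- cells it was lost under 2 of 22 (adjusted p up to 0.0825).

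Between Lig+ and Lig- cells, 3 of those 13 genes were higher and 1 was lower. Ctsc, whose product activates granzymes by removing a dipeptide, was 1.94 ± 0.17 higher (adjusted p = 0.00202), with Lig+ arrays at 0.44 to 1.36 and Lig- arrays at -1.34 to -0.93. Igf2r, a receptor that sorts enzymes to lysosomes, was 2.07 ± 0.16 higher (adjusted p = 0.00138) and Gnptg, a subunit of the enzyme that marks lysosomal proteins for sorting, 0.83 ± 0.09 higher (adjusted p = 0.00387). Ctsl, a cathepsin, had the opposite order. Its ratios were -2.51, -2.42, -1.59 and -1.67 on the Lig+ arrays and 0.40, 0.91 and 0.86 on the Lig- arrays, a difference of -2.82 ± 0.21 (adjusted p = 0.00138). Ctsc and Gnptg lie outside the rule for named genes and were chosen after their values were seen, as were Tnfsf10, Ifng, Tbx21, Hopx, Prdm1, Runx3, Fcgr3 and Cd244 where they are named.

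Of 18 genes for granule transport and exocytosis, 6 rose and 4 fell in Lig+ cells (median 0.21), and 3 rose and 3 fell in Lig- cells (median 0.13). Sytl2, a Rab27a effector at the granule, rose in both (1.89 ± 0.34 and 1.40 ± 0.37, adjusted p = 0.00587 and 0.0316, the latter lost under 6 of 22 other settings), and Sytl3, of the same family, fell in both (-1.95 ± 0.10 and -2.23 ± 0.11, adjusted p = 3.59e-05 and 4.88e-05). Stx11, a syntaxin needed for granule fusion, was 1.12 ± 0.18 higher in Lig+ than in Lig- cells (adjusted p = 0.0131), and Lyst, a regulator of lysosome size, was lower (-1.54 ± 0.18, adjusted p = 0.00512). Those were the 2 genes of the 18 that differed, against 10.9% of all probes.

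Among 7 measured inhibitors of granzymes and cathepsins, 4 rose and 1 fell in Lig+ cells (median 0.26), and none rose and 2 fell in Lig- cells (median -0.10; at an unadjusted p under 0.05, 0 rose and 3 fell by limma). Serpinb1a, a serpin that blocks neutrophil-type proteases, was the gene with the lowest ratio (-4.22 ± 0.28 in Lig+ and -2.99 ± 0.30 in Lig-, adjusted p = 8.70e-05 and 6.83e-04). Serpina3g was 2.05 ± 0.26 higher in Lig+ than in Lig- cells (adjusted p = 0.00667) and Serpinb6b 0.79 ± 0.09 higher (adjusted p = 0.00392). Cstb, cystatin B, rose in Lig+ cells by 0.42 ± 0.07 (adjusted p = 0.00530).

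All 6 death ligands and effector cytokines rose in Lig+ cells in the reported fit (median 1.35). The rise of Fasl (0.99 ± 0.26, adjusted p = 0.0254) was lost under 6 of 22 other settings (adjusted p up to 0.111). In Lig- cells 2 rose and 1 fell (median 0.09). Lta and Ltb, which encode lymphotoxins, rose in both, by 3.30 ± 0.14 and 2.77 ± 0.16 in Lig+ and by 3.44 ± 0.15 and 2.50 ± 0.17 in Lig- cells (adjusted p from 1.88e-05 to 1.48e-04). Their differences of -0.14 ± 0.19 and 0.27 ± 0.22 did not pass (adjusted p = 0.716 and 0.512). In the reported fit the other 4 were higher in Lig+ than in Lig- cells. Fasl, the ligand of the Fas death receptor, had ratios of 0.49, 0.49, 1.97 and 1.39 on the Lig+ arrays and -1.06, -1.04 and -1.20 on the Lig- arrays, a difference of 2.15 ± 0.37 (adjusted p = 0.0167). Tnf differed by 1.66 ± 0.12 (adjusted p = 0.00130), Ifng by 1.31 ± 0.22 (adjusted p = 0.0162) and Tnfsf10, which encodes TRAIL, by 0.57 ± 0.13 (adjusted p = 0.0438). Tnfsf10 lay close to the threshold. With slide as a block its difference was 0.53 (adjusted p = 0.0540), and the call was lost under 11 of 22 other settings (adjusted p up to 0.248), among them each single array left out except Lig+ replicate 3. The differences of Fasl and Ifng between the groups were each lost under 4 of 22.

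Of 14 measured regulators of the cytotoxic programme, 11 rose and 1 fell in Lig+ cells (median 1.49), and 7 rose and 1 fell in Lig- cells (median 0.39). Between the groups 5 were higher and 2 lower in Lig+ cells. The T-box factors had the order of Crtam. Eomes had ratios of 2.42, 2.01, 3.56 and 3.79 on the Lig+ arrays and -0.23, -0.22 and -0.09 on the Lig- arrays, a difference of 3.09 ± 0.44 (adjusted p = 0.00927), and Tbx21, which encodes T-bet, differed by 1.09 ± 0.12 (adjusted p = 0.00415). Id2, an inhibitor of E proteins, rose in Lig+ (1.74 ± 0.13, adjusted p = 1.28e-04) and fell in Lig- cells (-1.98 ± 0.14, adjusted p = 1.57e-04). Hopx, a homeodomain cofactor, differed by 2.87 ± 0.28 (adjusted p = 0.00256).

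Il2rb, the β chain of the IL-2 and IL-15 receptors, was at 3.84 ± 0.26 in Lig+ and at 2.15 ± 0.28 in Lig- cells (adjusted p = 9.58e-05 and 0.00203), and differed by 1.70 ± 0.37 (adjusted p = 0.0354, lost under 7 of 22 other settings). Il12rb1, a subunit of the IL-12 and IL-23 receptors, had the order of Gzma, with 2.35 ± 0.10 in Lig+ and 3.64 ± 0.11 in Lig- cells and a difference of -1.29 ± 0.14 (adjusted p = 0.00362). Prdm1, which encodes the repressor Blimp-1, was also lower in Lig+ than in Lig- cells (-0.50 ± 0.10, adjusted p = 0.0297). That call was lost under 10 of 22 other settings (adjusted p up to 0.163), among them Agilent's processed signals, median centring, no dye term and every single array left out but Lig+ replicates 2 and 3. Il18r1, the IL-18 receptor, rose in both (2.76 ± 0.21 and 2.40 ± 0.23, adjusted p = 1.42e-04 and 4.98e-04), as did Runx3, a Runx factor of cytotoxic T cells (1.80 ± 0.18 and 2.03 ± 0.19, adjusted p = 4.30e-04 and 5.29e-04).

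The same arrays held RNA of several markers of other cell types. In bulk RNA, fewer cells of a type and less RNA per cell cannot be told apart. Of 12 natural killer cell markers 11 were on the array. In Lig+ cells 1 of them, Itga2, was higher than in DN3 cells (0.53 ± 0.10, adjusted p = 0.00689) and 5 were lower, and in Lig- cells none was higher and 5 were lower (0 and 6 at an unadjusted p under 0.05 by limma). The Itga2 probe was well above background on 2 of 4 Lig+ arrays and 1 of 7 DN3 channels, and its call was lost without Lig+ replicate 1 (0.54, adjusted p = 0.106) and with the Lig+ arrays fitted alone (0.53, adjusted p = 0.0539). Klra7, well above background on 2 of 4 Lig+ arrays, had ratios of -2.68, -2.77, 0.22 and 0.01 on Lig+ replicates 1 to 4 and did not pass (-1.60 ± 0.54, adjusted p = 0.0624). Its low mean came from the arrays of day 1. The summed intensity of the list ran from 11757 to 19364 in Lig+, 9253 to 12101 in Lig- and 16244 to 23128 in DN3 channels. Fcer1g alone made up 41.1% to 52.1%, 40.1% to 59.4% and 35.3% to 51.9% of that sum, in the same order. Klra1 was not well above background on any Lig+ array. Between the groups, Fcgr3 and Cd244 of this list were higher in Lig+ cells (1.55 ± 0.37, adjusted p = 0.0482, and 2.48 ± 0.22, adjusted p = 0.00216), as Prf1, Ctsw, Nkg7 and Crtam were. With slide as a block Fcgr3 did not pass (1.55, adjusted p = 0.0862), and its call was lost under 11 of 22 other settings (adjusted p up to 0.146), while that of Cd244 held under all 22. Of 12 macrophage and monocyte markers, 1 rose in Lig+ cells and 10 fell. The one that rose was Itgam, the integrin chain CD11b, with 1.71 ± 0.23 in Lig+ (adjusted p = 0.00154) and 0.10 ± 0.25 in Lig- cells (adjusted p = 0.813). It was 1.61 ± 0.32 higher in Lig+ than in Lig- cells (adjusted p = 0.0273), a call that held when Lig+ replicate 2 was left out and was lost without any other single array (adjusted p up to 0.118). The summed intensity of that list was 13514 to 38469 in Lig+, 13249 to 23323 in Lig- and 83956 to 105597 in DN3 channels. Lyz2 alone made up 30.7% to 51.6%, 43.2% to 56.3% and 68.7% to 76.9% of it, in the same order. The part of these markers in the granule gene results was not tested.

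Single markers of mast cells and of B cells were higher in Lig- cells, where Gzma was high. Of 9 mast cell and basophil markers 8 were kept, and in Lig- cells Cpa3, a mast cell carboxypeptidase, rose (3.92 ± 0.45, adjusted p = 0.00107) and 2 fell. The list's summed intensity was 155857 to 251922 in Lig-, 11697 to 75827 in Lig+ and 7899 to 29783 in DN3 channels. Cpa3 alone made up 99.0% to 99.3% of that sum in Lig- channels, so the sum follows this gene and not the list. Between the groups Cpa3 differed by -2.85 ± 0.57 (adjusted p = 0.0287), a call lost under 5 of 22 other settings (adjusted p up to 0.134). Mcpt2 was not well above background on any DN4 array. Of 7 B cell markers 3 rose and 1 fell in Lig- cells. Blk, a Src family kinase, was at 4.22 ± 0.55 (adjusted p = 0.00185), and Cd79b, a chain of the B cell receptor complex, was at -0.87 ± 0.19 (adjusted p = 0.0145). The difference of Blk between the groups did not pass (-2.73 ± 0.71, adjusted p = 0.0606). The list had a summed intensity of 82106 to 103701 in Lig- channels, of which Blk made up 72.7% to 79.7%, and of 23541 to 39587 in Lig+ channels, of which Cd79b made up 68.4% to 88.5%. On Lig- replicates 1 to 3 Cpa3 was at 4.65, 3.16 and 3.28 and Blk at 4.62, 3.47 and 4.00. Gzma, at 5.49, 3.15 and 4.72, had the same order over these arrays. On Lig+ replicate 3 Cpa3 and Blk were at -0.98 and -0.95, their lowest values, while Gzma was at 1.99, its highest on a Lig+ array. The dendritic cell list had a summed intensity of 39019 to 59353 in Lig+, 7702 to 12126 in Lig- and 30039 to 37293 in DN3 channels. H2-Ab1, a class II histocompatibility chain, made up 69.6% to 82.7% of it in Lig+ channels and was 2.83 ± 0.25 higher in Lig+ than in Lig- cells (adjusted p = 0.00216). Against DN3 it was at -2.07 ± 0.20 in Lig- cells (adjusted p = 5.29e-04). In Lig+ cells it was at 0.76 ± 0.18 (adjusted p = 0.0172, lost under 4 of 22 other settings). The part of these lists in the granule gene results was not tested.

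The genes whose ratios on the 7 arrays were most like those of each called granule gene were found by the root mean square (RMS) difference in log2 ratio, over 28881 probes with a gene symbol (28880 for Nkg7). For Prf1 they were Lcp1, an actin-bundling protein (RMS difference 0.166), Ramp3 (0.178) and Cd6 (0.179). For Ctsw they were Cotl1 (0.275), Acot11 (0.280) and Gramd1a (0.321). For Nkg7 they were Plekha1 (0.252), C1qtnf6 (0.264) and Wdr1 (0.270). Patterns like that of Gzma were less close, with Wfs1 (0.704), C030034L19Rik (0.735) and Icos (0.741). For Crtam they were Nrp2 (0.465), Klrd1, the CD94 chain of natural killer receptors (0.496), and Art2a (0.593). All these probes share the 7 arrays and the DN3 channel.

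**Figure D4:**
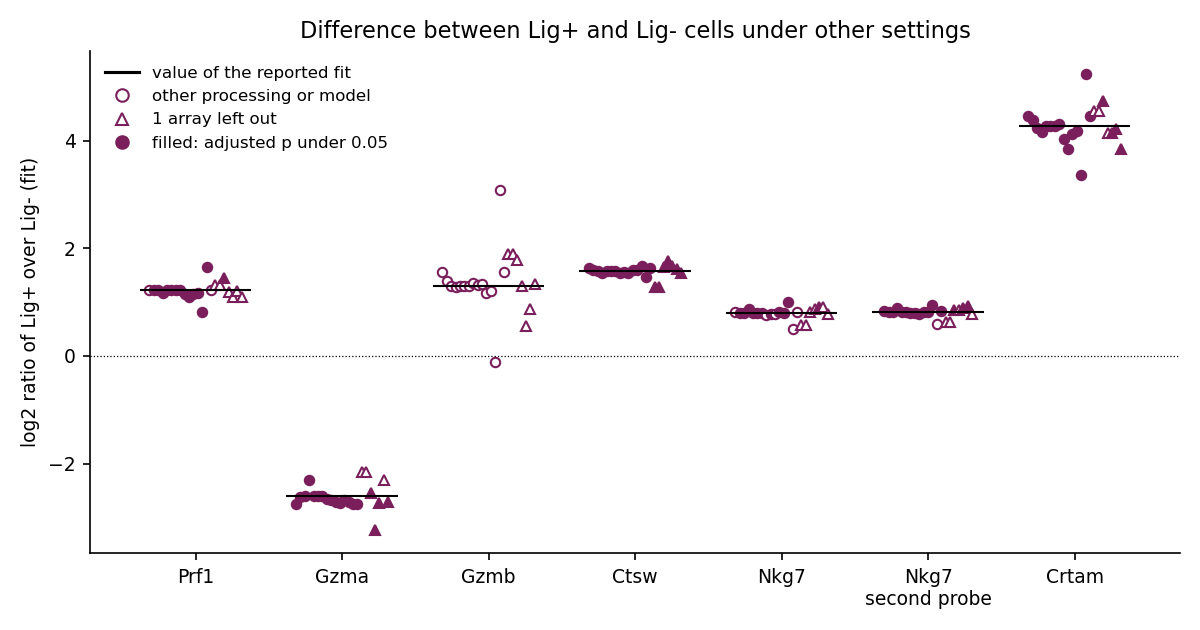
Log2 ratio of Lig+ over Lig- cells for each probe in the reported fit (bars) and under other processing or models (circles) or with 1 array left out (triangles). Filled marks have an adjusted p under 0.05. Ctsw is filled throughout, at 1.29 to 1.77, Gzma stays below 0 and Gzmb is never filled.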

How the data were processed

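Total RNA of flow-sorted thymocytes was amplified with amino allyl nucleotides, labelled with Alexa 555 or 647 and hybridised to 7 Agilent arrays, per the labels' protocols. The scanner files hold spot intensity values made by the authors with Agilent Feature Extraction, in version 9.5.1.1 on scan day 1 and version 9.5.3.1 on scan day 2, per the file headers, and only 9.5.1.1 per the submitters' processing notes. Log10 ratios (DN4 over DN3) make up the series table that the authors deposited. They equal Agilent's log ratio within 4.87e-08 and served as an alternative.

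From the intensities, log2 ratios were computed with limma 3.58.1 in R 4.3.3 (data.table package, version 1.17.8): normexp with an offset of 50, loess with the 1639 control spots at weight 0, outlier spots (0.354%) set missing, and spots of a probe averaged. Probes were kept if at least 3 arrays had either channel well above background (34906 of 41174). One fit (lmFit and eBayes) held terms for Lig+, Lig- and dye, with 4 residual and 2.35 prior degrees of freedom. Agilent's unturned log ratios correlated at 0.556 to 0.910 between arrays of one dye orientation and at -0.841 to -0.496 between opposite ones. The dye term was called for none of the granule probes. Slide 1 alone had DN4 RNA in Alexa 647, so a dye effect cannot be told apart from an effect of slide 1. Scan day was called for none of the granule probes either, and for 14.9% of all probes. The fit was tested on simulated data. Levels came from the channels after loess and Aquantile.

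Groups came from source names. Replicate numbers are accession order and only names, but replicates 1 to 3 of both groups share slides 1 to 3, per the labels. Deviations of arrays on one slide from their group means correlated at 0.726, 0.526 and 0.550, so slide was used as a block in an alternative. A gene was called by its brightest probe. Of the probes, 22951 were named by accession, 6659 by current symbol and 3109 by older symbol in RefSeq, and 8455 kept the file's name. Members and lists were chosen with earlier results of these data known. Named list genes were up to 4 per list with the largest called ratio to DN3, up to 2 called between the groups, and from each cell type list the highest and lowest ratio, of which the lists that bear on the granule genes are reported, together with the 3 most alike patterns of each called gene. Alternatives changed background, normalisation, filter, probe choice, dye, slide and day terms, or left out single arrays.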

Additional observations from a re-analysis of the deposited data

Results flagged for a closer look

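The Lig+ over Lig- difference passed the limma test for 5 of the 6 granule genes, at 1.23 for Prf1, -2.60 for Gzma, 1.59 for Ctsw, 0.80 and 0.82 for the probes of Nkg7 and 4.28 for Crtam (log2). Among genes for granule contents, transport and inhibitors it passed for Ctsl (-2.82), Igf2r (2.07), Ctsc (1.94), Gnptg (0.83), Stx11 (1.12), Lyst (-1.54), Serpina3g (2.05) and Serpinb6b (0.79). Among death ligands, cytokines and regulators it passed for Tnf (1.66), Fasl (2.15), Ifng (1.31), Tnfsf10 (0.57), Il2rb (1.70), Il12rb1 (-1.29), Eomes (3.09), Tbx21 (1.09), Hopx (2.87), Id2 (3.72) and Prdm1 (-0.50). Among all markers of stage or of cell types it passed for Dtx1 (2.11), Notch3 (-1.88), Thy1 (-1.08), Fcgr3 (1.55), Cd244 (2.48), Itgam (1.61), H2-Ab1 (2.83), Cpa3 (-2.85), Ngp (-0.56), Ebf1 (-0.74) and Epcam (-1.25), of which Notch3, Thy1, Ngp and Ebf1 were chosen after their values were seen. In Lig+ cells the Serpinb6b ratio of replicate 1 stood apart from the other arrays (0.0036, with the nearest at 0.48), which was 1 of 58 probes tested over the 4 Lig+ arrays, where chance marks about 1 in 20 groups.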

How the results depend on the processing

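Relative to DN3, all 5 calls in Lig+ cells held under 22 alternatives. In Lig- cells Gzma and Ctsw held under all 22, Prf1 was lost without Lig- replicate 1, and Nkg7 was lost with median centring (0.44), no dye term (0.49), slide (0.59) or day (0.57) as a random block and on day 2 alone (0.49), besides single arrays. Between the groups Prf1 was also lost with Agilent's processed signals and with the authors' deposited values (1.24 in both), and Nkg7 with these (0.82), without the dye term (0.76) and on day 2 alone (0.51). With Agilent's processed signals, and with the authors' deposited values, 3 granule genes were called between the groups in place of 5, and without single arrays 1 to 4. The replicate block, with slide as a fixed block, lost Nkg7 (0.77, adjusted p = 0.0800), raised the probes called between the groups from 3812 to 7162 and changed no other call of a granule gene. It also lost Tnfsf10 (0.53, adjusted p = 0.0540) and Fcgr3 (1.55, adjusted p = 0.0862). That count was 2414 with median centring, 8303 with slide and 6711 with scan day as a random block, 7721 with scan day as a fixed term, 15354 on day 1 alone, 6125 on day 2 alone and 963 to 4939 without single arrays (963 without Lig+ and 964 without Lig- replicate 1, 1416 without Lig- replicate 2, 2162 without Lig+ and 2458 without Lig- replicate 3). On day 1 alone 22430 probes were called in Lig+ and 22257 in Lig- cells against DN3, and 7380 in Lig- cells from their own arrays alone. Without single arrays these counts were 5617 to 13148 in Lig+ and 3887 to 12242 in Lig- cells, lowest without replicate 1 of the same group.

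No value that changed sign was called in the reported fit. On day 1 alone these were Gzmb (-0.41 in Lig+, -0.12 between the groups), Dtx1 (0.22) and Cd8a (-0.33) in Lig+ cells, Serpina3g in Lig- cells (0.0083), and Cadm1 (-0.20) and Runx3 (0.18) between the groups. On day 2 alone these were Klra7 (0.11) and Cpa3 (-0.19) in Lig+ cells, Tnf (-0.29) and Gnptg (-0.016) in Lig- cells, and Cst7 (-0.18), Il2ra (-0.18) and Klra7 (0.15) between the groups. With median centring they were Cstb (-0.0055), Tnf (-0.030) and Itga2 (-0.016) in Lig- cells. Tnf in Lig- cells was -0.032 without the dye term, -0.049 with day as a fixed term and -0.026 with day as a random block, and Eomes was 0.027 with day as a fixed term. Without single arrays the Lig- ratios ran from -0.37 to 0.13 for Crtam, -0.058 to 0.13 for Igf2r, -0.24 to 0.0083 for Serpina3g, -0.096 to 0.10 for Tnf, -0.22 to 0.030 for Tbx21 and -0.18 to 0.030 for Hopx. Thy1 in Lig+ cells was -0.26 without the dye term and -0.82 on day 2 alone. Itgam in Lig- cells ran from -0.12 to 0.21 and Dtx1 in Lig+ cells from -0.23 to 0.047. Differences between the groups ran from -0.054 to 0.37 for Cst7, -0.32 to 0.080 for Lta, -0.065 to 0.33 for Il2ra and -0.44 to 0.099 for Runx3. The cause of these changes was not tested. Of 3354 values of the other list genes followed, 3077 kept direction and call, 178 lost a call, 67 gained one and 32 changed sign. Of 924 list counts 811 stayed within 1.5 times. Of 180 RMS differences 1 moved by more than the spread of its granule gene.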
